A study of Sus scrofa with 12 samples.

Results

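MHC class I molecules show peptides from inside the cell to cytotoxic T cells, and 8 probes of that pathway were followed here in blood mononuclear cells of boars that differ at SLA-DRB1, which encodes a chain of a swine MHC class II molecule. The probes were taken by their names on the array: MHC-I, TAP1, TAP2, LMP2, LMP7, LMP10, CALR and SUG1. They are 8 of the 188 gene probes, and each was printed as 8 spots. All 8 passed the filter on dim probes, as did 185 probes in all, and only those were tested.

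The cells came from Yorkshire boars of 3 genotypes, with 2 boars of each: SLA-DRB1 allele 050502, allele 070701, and an allele that the labels call potentially new, named New here. No group received a treatment, and cells were taken from EDTA blood over a density gradient. The RNA of 2 boars of different genotype was hybridised together on a spotted cDNA array in 2 colours, and each such pair was run on 2 arrays with the dyes exchanged. This gave 12 arrays, 6 hybridised pairs and, for each of the 3 genotype pairs, hybridised pairs A and B with different boars. Per the design text each boar was hybridised with a boar of both other genotypes, but the labels do not say which hybridised pairs share a boar. Only SLA-DRB1 defined the genotypes, and 2 boars stand for each, so a difference between genotypes cannot be told apart from one between individual boars.

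In the class I pathway, the proteasome cuts proteins into peptides, and the TAP transporter carries them into the endoplasmic reticulum, where they are loaded onto class I heavy chains. LMP2, LMP7 and LMP10 are the catalytic subunits of the immunoproteasome, the form that cells make in response to interferon gamma and that leukocytes hold at rest. TAP1 and TAP2 form the transporter, calreticulin (CALR) is a chaperone of class I loading, and SUG1, a name first given to the yeast protein, is an ATPase of the proteasome's regulatory particle. A RefSeq gene list for Sscrofa11.1 held 5 of the 8 names as a symbol or synonym. TAP2, LMP7 (PSMB8), TAP1 and LMP2 (PSMB9) stand there as 4 neighbouring genes on chromosome 7, which also holds SLA-DRB1, and CALR lies on chromosome 2. The SLA class I region has several similar genes, and which of them the MHC-I probe binds is not given in the sources used here.

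Array medians of spot intensity spanned 382 to 2004 (red) and 498 to 2078.5 (green), and those of local background 96 to 320 (red) and 113 to 359.5 (green). Of the markers fixed for blood cells, 11 of 11 T cell, 2 of 2 cytotoxic, 3 of 3 B cell and 6 of 6 monocyte and dendritic cell probes were detected in most of the 24 channels, but only 3, 1, 0 and 2 of them were brighter in most channels than both negative-control DNAs, VapA and pACYC177. Names for granulocytes, platelets and red cells found no match on the array. Ratios of hybridised pairs A and B correlated across the 185 probes at r = 0.60 for 050502 over 070701 and at r = 0.64 for 070701 over New, but at r = -0.54 for 050502 over New. The direction of that last comparison is therefore not settled, and its values are given as labelled and again with pair A turned.

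The 8 probes differed in how far they stood above the controls. MHC-I, TAP1, LMP2, LMP10 and SUG1 were brighter than both control DNAs in all 24 channels, and LMP7 in 23. MHC-I had a median of 12.8 times the brighter control, SUG1 of 6.86, TAP1 of 3.14 and LMP2 of 2.96 times. LMP7 and LMP10 had medians of 1.39 and 1.34 times it. TAP2 passed both controls in 11 channels and CALR in 12, with medians of 0.96 and 1.02 times the brighter control, so the ratios of these 2 probes came from signals at the level of the negative-control DNAs. All 8 were detected above local background in every channel, and no more than 15 percent of the pixels of any of their spots were saturated.

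None of the 8 probes passed the test in any genotype pair. Between 050502 and 070701, 0 of 8 passed in limma (adjusted p from 0.51 to 0.997), where 2 of all 185 probes did (1.08%). At an unadjusted p under 0.05 stood 1 of the 8, LMP2, against 15 of 185 (8.11%). Between 070701 and New, 0 of 8 passed in limma (adjusted p from 0.80 to 0.997) against 2 of 185 (1.08%), and 0 of 8 against 14 of 185 (7.57%) at an unadjusted p under 0.05. Between 050502 and New, 0 of 8 and 0 of 185 passed in limma (0%), and 0 of 8 against 15 of 185 (8.11%) stood at an unadjusted p under 0.05. With pair A turned, that comparison had 0 of 8 passing in limma against 4 of 185 (2.16%), and at an unadjusted p under 0.05 stood 2 of 8 against 27 of 185 (14.6%). These 2 were TAP1 and TAP2 (limma adjusted p = 0.27 and 0.23). The median log2 ratio of the 8 was -0.076 for 050502 over 070701, -0.074 for 050502 over New and -0.051 for 070701 over New, beside medians of -0.0043, 0.0019 and 0.0065 over all probes. Means were below 0 for 7 of 8, 5 of 8 and 5 of 8 probes in these genotype pairs, against 51.9%, 48.6% and 47% of all probes. All 4 arrays gave one direction for 2 of 8 (all probes 29.2%), 0 of 8 (9.19%) and 2 of 8 (29.7%). With pair A of 050502 over New turned, 3 of 8 did so there (20.5%), MHC-I, TAP1 and LMP2, all lower in 050502. The 4 levels of each genotype did not overlap for 1 of 8 (4.32%), 0 of 8 (1.08%) and 0 of 8 (3.78%). With pair A turned these were 1 of 8 (9.73%), 0 of 8 (5.41%) and 0 of 8 (3.24%). With only the second array of each dye exchange the median of the 8 turned to 0.081 for 050502 over New and 0.016 for 070701 over New. Medians over all probes were then 0.035 and -0.0059. For 050502 over New with median centring, all 8 means were below 0 (median -0.18), against 41.1% of all probes (median 0.030). With the deposited values all 8 were below 0 again (-0.25), against 42.2% of all probes (0.024). Without pair B it was 2 of 8 (0.065), against 43.8% (0.015). For 070701 over New without pair B, 3 of 8 were below 0 (0.014), against 45.9% of all probes (0.0098).

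**Figure D1:**
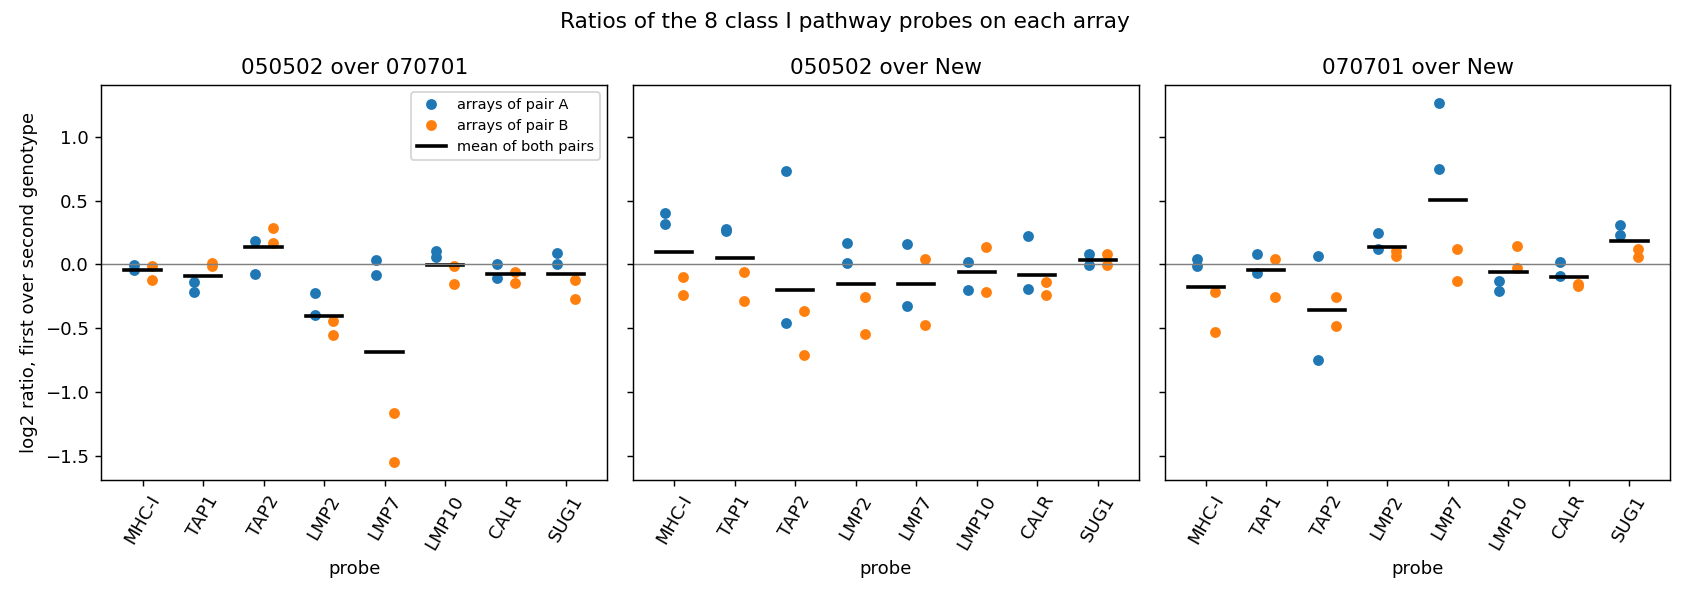
Log2 ratio of each class I pathway probe (x axis) on each array (points, blue for hybridised pair A and orange for pair B), first-named over second genotype, with the mean of both pairs as a bar. Most values lie near 0; LMP2 is below 0 on all 4 arrays of 050502 over 070701, and LMP7 is far from 0 in only 1 hybridised pair of each comparison with 070701.

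The immunoproteasome subunit LMP7 had the widest differences of the 8, and they stood in single hybridised pairs. For 050502 over 070701, the arrays of pair A gave log2 ratios of 0.036 and -0.085, and those of pair B gave -1.54 and -1.16. For 070701 over New, pair A gave 1.26 and 0.74, and pair B gave -0.13 and 0.12. In pair B of the first comparison the 070701 boar thus had 2.56-fold more LMP7 signal than its partner, and in pair A of the second 2.01-fold more. The other pair of each comparison lay between -0.13 and 0.12 on all arrays.

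The 8 spots of the LMP7 probe gave one direction on each of these arrays. On both arrays of 050502 over 070701 pair B, 8 of 8 spots were below 0, and on both arrays of 070701 over New pair A, 8 of 8 were above 0. The SD over the 8 spots was 0.15, 0.16, 0.22 and 0.11 on these arrays. In array B1 of the first comparison the background-subtracted intensity was 3459 for 070701 in red and 2040 for 050502 in green, and in array B2, with dyes exchanged, it was 5158 for 070701 in green and 2312 for 050502 in red. The 070701 channel was the brighter in either dye.

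**Figure D2:**
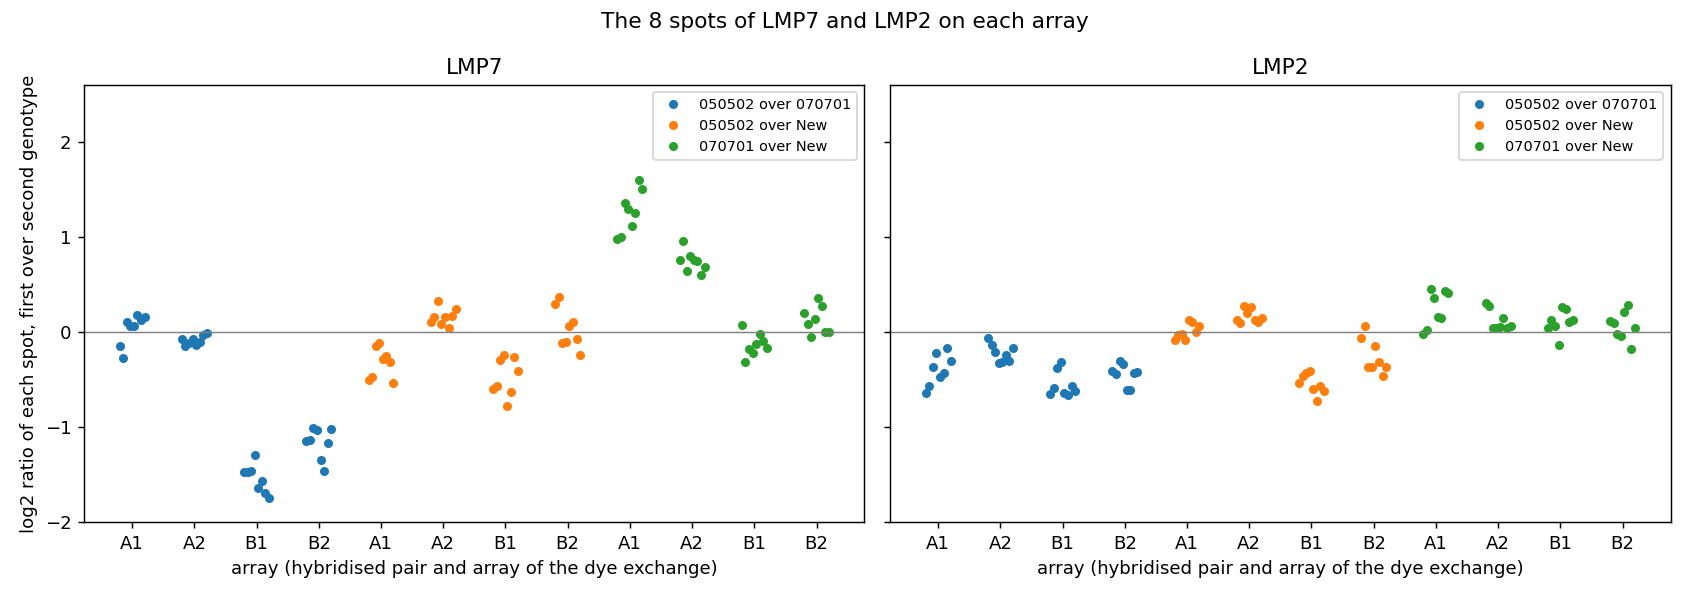
Log2 ratio of each of the 8 spots of LMP7 (left) and LMP2 (right) on the 12 arrays, coloured by genotype pair, first-named over second genotype. The LMP7 spots lie below -1 on arrays B1 and B2 of 050502 over 070701 and above 0.5 on arrays A1 and A2 of 070701 over New, while all 8 LMP2 spots are below 0 on each of the 4 arrays of 050502 over 070701.

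Averaged over pairs, LMP7 had a log2 ratio of -0.69 for 050502 over 070701 (1.61-fold, SD 0.94, n = 2 hybridised pairs, 95% interval -1.69 to 0.31, limma adjusted p = 0.66). For 070701 over New it was 0.50 (SD 0.71, interval -0.50 to 1.50, limma adjusted p = 0.88). Neither difference was larger than the spread between pairs. That spread was itself wide: the pairs differed by 1.33 and 1.01, ranks 3 and 4 of 185 probes, where the median probe differed by 0.13 and 0.084. Without pair A of 070701 over New the remaining ratio was -0.0033, and without pair B of 050502 over 070701 it was -0.024.

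LMP7 levels by genotype show the same 2 hybridised pairs. As normalized log2 channel intensity, the 070701 RNA stood at 10.61 and 11.76 in pairs A and B with 050502, and at 11.68 and 10.43 in pairs A and B with New. The 4 values of 050502 RNA were 10.58, 10.41, 10.55 and 10.33, and those of New RNA 10.64, 10.55, 10.67 and 10.43. The 2 high values of 070701 RNA lay above all 8 values of the other genotypes, and the other two lay within the range of those. For SUG1, 070701 RNA was also higher in the same 2 pairs, at 13.36 and 13.35 against 12.70 and 12.76. TAP1 (12.20 and 12.22 against 11.68 and 11.80) and MHC-I (14.24 and 14.17 against 13.79 and 13.86) ran the same way. So did LMP2 (12.13 and 11.98 against 11.86 and 11.69) and LMP10 (10.83 and 10.76 against 10.52 and 10.56), while TAP2 and CALR did not. For SUG1, TAP1, LMP2 and LMP10 the partner RNA was higher in those pairs as well, so levels also differed between hybridised pairs. Whether the high LMP7 values came from 1 boar or from both is not given in the labels. The 2 hybridised pairs with little LMP7 difference were scanned on the same day, and the 2 with a large difference on separate other days, so scan day and boars cannot be told apart here.

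**Figure D3:**
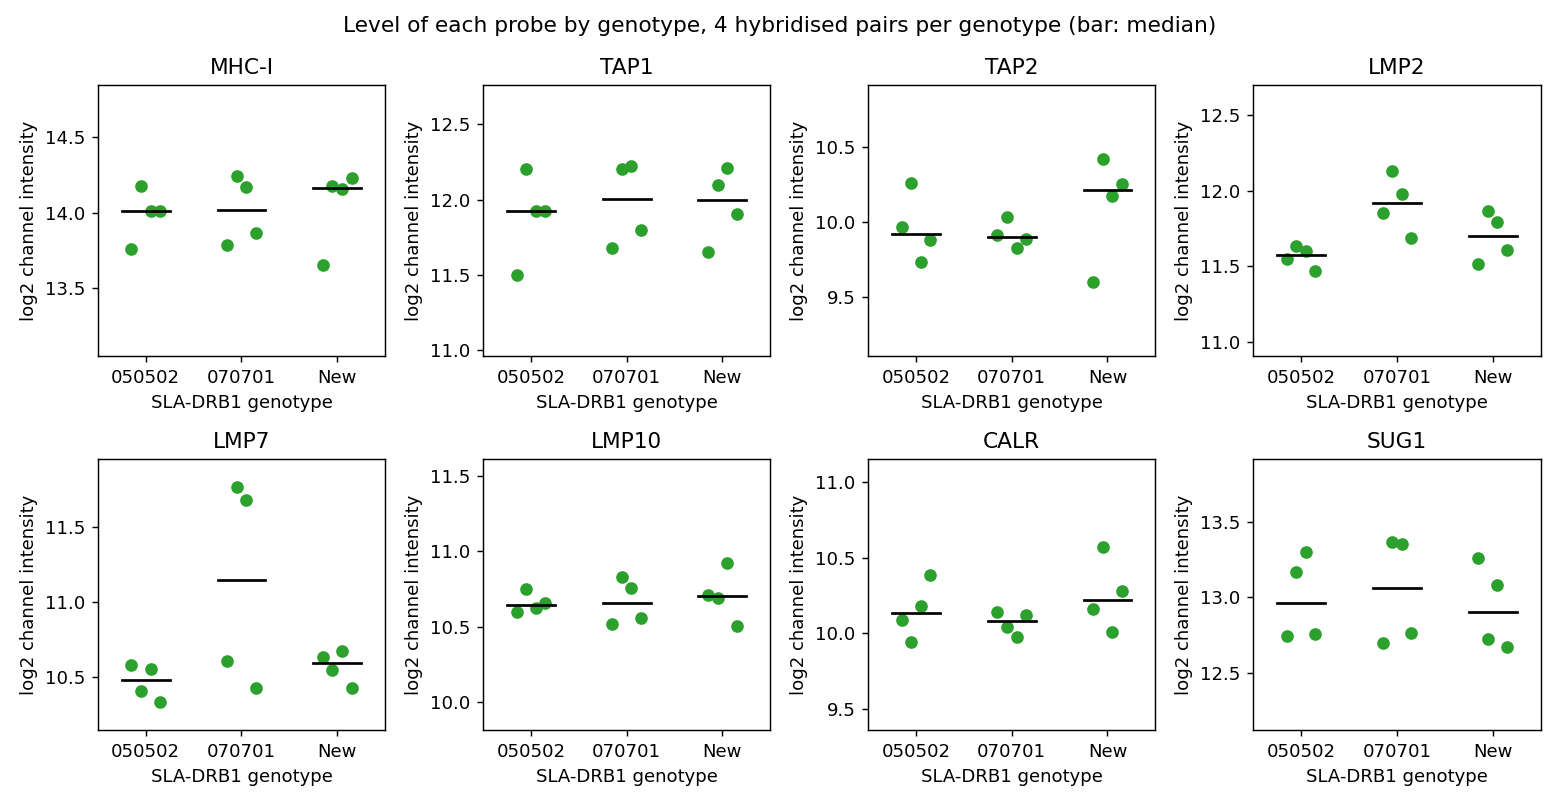
Normalized log2 channel intensity (y axis, of equal span in each panel) of each probe by genotype, with 1 point for each of 4 hybridised pairs and the median as a bar. LMP7 in 070701 splits into values near 11.7 and 10.5, with smaller splits between the same pairs in SUG1, TAP1, MHC-I, LMP2 and LMP10. LMP2 in 070701 lies above all values of 050502, and the 6 probes other than LMP7 and LMP2 overlap between genotypes.

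The chromosomal neighbours of LMP7 had smaller ratios in these pairs. In 050502 over 070701 pair B, where LMP7 was at -1.35, LMP2 was at -0.50, TAP1 at 0.0019 and TAP2 at 0.23. In 070701 over New pair A, where LMP7 was at 1.004, the same probes were at 0.18, 0.011 and -0.34. The difference between LMP7 and its neighbours was not tested.

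Of all other probes, TCRg, the gamma chain of the T cell receptor, had ratios nearest to those of LMP7 over the 6 hybridised pairs (root mean square difference 0.27, against a median of 0.72 to all probes). It gave -0.031 and -0.77 for 050502 over 070701 pairs A and B, -0.16 and 0.0050 for 050502 over New, and 1.17 and 0.088 for 070701 over New. Its values for 050502 over New joined arrays of opposite sign, -0.49 and 0.17 in pair A and 0.54 and -0.53 in pair B. TCRg and LMP7 were among 4 probes of 185 at least 0.5 higher in 070701 in both pairs in which LMP7 was high, with the inflammatory caspase Casp1 (1.29 and 1.11) and the T cell receptor alpha chain TCRa (0.86 and 0.62), a set chosen after its values were seen. Casp1 and TCRa were also higher in 070701 in the other pairs (0.42 and 0.99 for Casp1, 0.36 and 0.37 for TCRa), where LMP7 was at 0.024 and -0.0033. Other probes linked to gamma delta T cells, named after their values were seen, were less far from 0: the delta chain TCRd stood at -0.29 and 0.27 in those 2 pairs, and WC1.1, a surface protein of such cells in ruminants and pigs, at -0.17 and 0.095. The beta chain TCRb stood at -0.12 in 050502 over 070701 pair B. In 070701 over New pair A it was at -0.095, so lower in 070701. TCRb was brighter than both negative controls in 24 of 24 channels, TCRa in 18, TCRg in 13, WC1.1 in 5 and TCRd in 0.

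The 11 probes of the T cell list had a median log2 ratio of -0.12 and -0.16 in pairs A and B of 050502 over 070701, and of 0.11 and -0.035 in pairs A and B of 070701 over New. The log2 of their summed level ran from 13.63 to 14.25 in 050502, from 13.82 to 14.51 in 070701 and from 13.61 to 14.17 in New, and the highest values of 050502 and of 070701 both stood in pair B of 050502 over 070701. None of the 11 was undetected throughout. The 6 probes of the monocyte and dendritic cell list ran the other way between 050502 and 070701, with medians of 0.20 and 0.25 in pairs A and B and 5 of 6 means above 0 (0 passing in limma, lowest adjusted p = 0.39). The log2 of their summed level ran from 12.44 to 13.49 in 050502 (median 13.24), from 12.56 to 12.78 in 070701 (median 12.61) and from 12.37 to 13.18 in New. The part of cell content in the LMP7 and LMP2 values was not tested, and in RNA of mixed cells fewer cells of a type and less RNA per cell cannot be told apart.

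**Figure D4:**
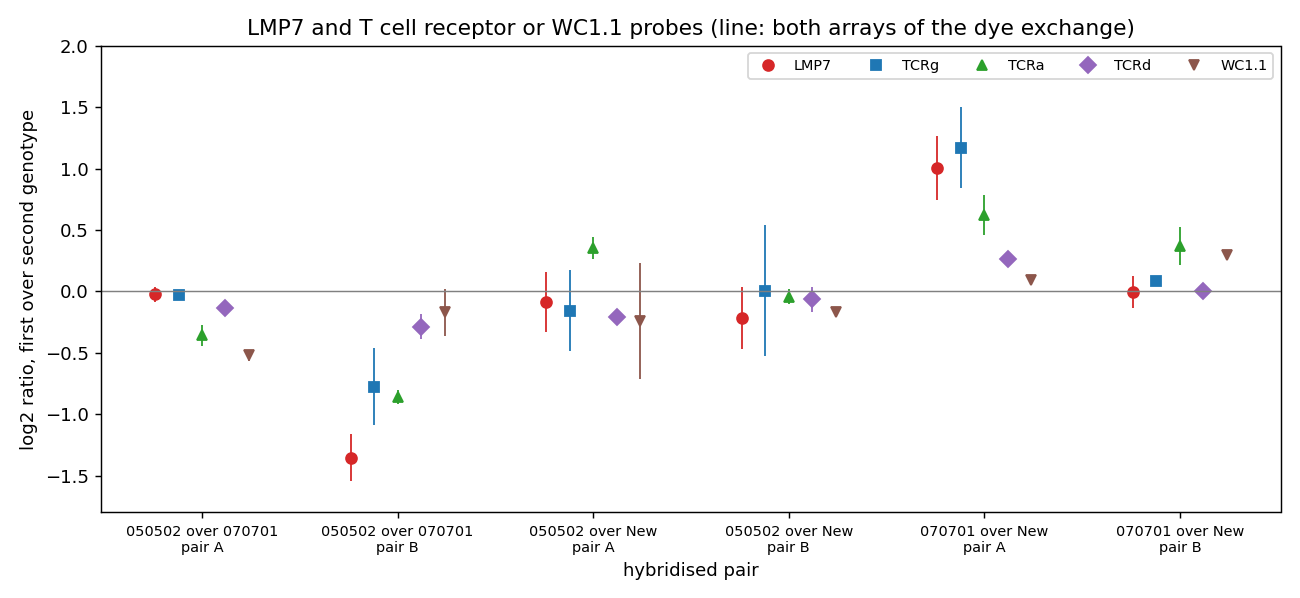
Log2 ratio of LMP7, WC1.1 and 3 T cell receptor probes (TCRg, TCRa and TCRd, with TCRb not drawn) in each of the 6 hybridised pairs. Ratios are first-named over second genotype, each symbol is the mean of a dye exchange and the line joins its 2 arrays. LMP7 and TCRg are far below 0 in 050502 over 070701 pair B (-1.35 and -0.77) and above 1 in 070701 over New pair A (1.004 and 1.17). Their means lie between -0.22 and 0.088 in the other 4 pairs, where single arrays of TCRg reach 0.54 and -0.53.

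LMP2, the immunoproteasome subunit whose gene neighbours TAP1, had the lowest unadjusted p of the 8 between 050502 and 070701. Its log2 ratios on arrays A1, A2, B1 and B2 were -0.40, -0.22, -0.55 and -0.44, all lower in 050502, and on 3 of these arrays the background-subtracted signal of 050502 was lower before normalization too (3099 against 3997, 3227 against 4826, and 4888 against 6880). On array B1 the raw signals ran the other way, 4694 for 050502 in green against 4026 for 070701 in red, before normalization. The mean was -0.40 (1.32-fold lower in 050502, SD 0.13, n = 2 hybridised pairs, 95% interval -0.75 to -0.057), with unadjusted p = 0.031 and limma adjusted p = 0.51. It ranked 10 of 185 by p and did not pass.

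As levels, LMP2 was at 11.55, 11.64, 11.60 and 11.47 in the 4 pairs with 050502 RNA and at 11.86, 12.13, 11.98 and 11.69 in those with 070701 RNA, so these did not overlap. Of all probes 4 (2.16%) were separated in this direction, and 1 of the 8 pathway probes. New RNA was at 11.51, 11.87, 11.79 and 11.61, which overlapped both. LMP2 was higher in 070701 than in New on 4 of 4 arrays (0.25, 0.12, 0.10 and 0.065), with a mean of 0.13 (SD 0.071, limma adjusted p = 0.91), and 0.015 with the deposited values. For 050502 over New its pairs opposed each other at 0.091 and -0.40, with a mean of -0.15 (SD 0.34, limma adjusted p = 0.63) and -0.24 with pair A turned. It was also the only one of the 8 whose dye exchange gave the same sign in 6 of 6 hybridised pairs. How many of all probes did so was not counted. In single pairs, 42.7% to 70.3% of all probes had the same sign. The probe nearest to it over the 6 pairs was TCReta (root mean square difference 0.12), at -0.51 and -0.36 for 050502 over 070701.

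LMP10, the last catalytic subunit, had ratios close to 0 throughout. Its mean was -0.00096 for 050502 over 070701 (SD 0.11, interval -0.22 to 0.22), -0.063 for 050502 over New (SD 0.036, interval -0.28 to 0.16) and -0.056 for 070701 over New (SD 0.16, interval -0.27 to 0.16), with limma adjusted p from 0.78 to 0.997. The levels ran from 10.60 to 10.75 in 050502, from 10.52 to 10.83 in 070701 and from 10.51 to 10.92 in New. Genotypes overlapped throughout, and as labelled no interval reached beyond -0.28 or 0.22. With pair A turned, the interval for 050502 over New ran from -0.20 to 0.25. In both pairs of that comparison the arrays of the dye exchange had opposite signs.

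SUG1, the ATPase of the regulatory particle, was higher in 070701 than in New on 4 of 4 arrays, at 0.31, 0.23, 0.062 and 0.12. The mean was 0.18 (1.13-fold, SD 0.13, interval -0.048 to 0.41, limma adjusted p = 0.80). LMP2 and SUG1 were thus 2 of 8 probes with all 4 arrays higher in 070701, where 28 of 185 probes (15.1%) did the same. SUG1 was at 0.013 with median centring and at -0.13 with the deposited log ratios. For 050502 over 070701 its pairs were at 0.047 and -0.20, with a mean of -0.075 (SD 0.17), and for 050502 over New at 0.039 and 0.036 as labelled, with a mean of 0.038 (SD 0.0022). Turning pair A made this last value -0.0015. Both pair means of 050502 over New joined dye-exchange arrays of opposite sign.

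The MHC-I probe itself differed little between 050502 and 070701. Arrays A1, A2, B1 and B2 gave -0.0021, -0.047, -0.12 and -0.013, a mean of -0.046 (SD 0.030, n = 2 hybridised pairs, interval -0.46 to 0.37, limma adjusted p = 0.94). It was -0.13 with median centring and -0.15 with the deposited values. MHC-I and LMP2 were the 2 of 8 probes lower in 050502 on all 4 arrays, as were 22 of all 185 probes (11.9%). Against New the pairs parted. For 070701 over New they gave 0.016 in A and -0.37 in B, a mean of -0.18 (SD 0.27, interval -0.59 to 0.24, limma adjusted p = 0.91). That mean was -0.47 with median centring and -0.61 with the deposited values (limma adjusted p = 0.72 and 0.66). The gap between the pairs, 0.39, ranked 12 of 185. For 050502 over New they gave 0.36 in A and -0.17 in B, a mean of 0.096 (SD 0.37, limma adjusted p = 0.80). With pair A turned the mean was -0.26 (SD 0.14, limma adjusted p = 0.34), and with arrays centred on their medians in place of loess it was -0.25 as labelled.

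MHC-I levels overlapped between genotypes, from 13.76 to 14.17 in 050502, from 13.79 to 14.24 in 070701 and from 13.65 to 14.23 in New. The lowest New value, 13.65, was in pair A with 050502, and the other 3 were between 14.16 and 14.23. With that pair turned, 13.65 belonged to 050502, whose levels then ran from 13.65 to 14.17, and New ran from 14.01 to 14.23. Spots of this bright probe had up to 10 percent of pixels saturated on array B1 of 050502 over New and up to 15 percent on array A2 of 070701 over New, in both cases with New RNA in red.

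Of the transporter probes, TAP1 was close to 0 in each genotype pair, with means of -0.088 (SD 0.13), 0.050 (SD 0.31) and -0.047 (SD 0.082) for 050502 over 070701, 050502 over New and 070701 over New, and limma adjusted p from 0.79 to 0.997. Its pairs in 050502 over New opposed each other at 0.27 and -0.17, and with pair A turned the mean was -0.22. Among all probes TAP1 was the nearest to MHC-I over the 6 hybridised pairs, with a root mean square difference of 0.13 against a median of 0.27. The probe nearest to TAP1 was that of the cytokine IL15 (0.069).

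TAP2 was lower in 070701 than in New in both hybridised pairs, at -0.34 and -0.37. The mean was -0.35 (1.28-fold lower, SD 0.017, interval -0.79 to 0.080, unadjusted p = 0.090, limma adjusted p = 0.80). The arrays behind these pair means were unequal: A1 gave -0.75 and A2 0.064, and B1 and B2 gave -0.48 and -0.25. In 050502 over New pair A the dye exchange gave -0.46 and 0.73, a gap of 1.19 and the widest of any of the 8 probes in any pair, and pair B gave -0.36 and -0.71. The mean there was -0.20 (SD 0.47, limma adjusted p = 0.63), and -0.34 with pair A turned. For 050502 over 070701 TAP2 was the single probe of the 8 with a positive mean, 0.14 (SD 0.12, limma adjusted p = 0.76). Its levels were 9.60, 10.42, 10.17 and 10.25 in New RNA and between 9.83 and 10.03 in 070701 RNA. The nearest probe was CD72, a surface protein of B cells (0.11).

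CALR, whose signal was about as bright as the controls, had means below 0 in each genotype pair, at -0.078 (SD 0.035), -0.086 (SD 0.14) and -0.097 (SD 0.091), with limma adjusted p from 0.64 to 0.88. Its intervals ran from -0.30 to 0.13 at most. Both arrays of 070701 over New pair B gave -0.16 and -0.17, and those of pair A 0.022 and -0.087. The nearest probe was FcgIIR, an Fc receptor for IgG (0.043).

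The arrays of a dye exchange gave the same sign for 29 of 48 values of the 8 probes. By hybridised pair this held for 37.5% to 87.5% of the 8, beside 42.7% to 70.3% of all probes. The gap between these arrays had a median from 0.10 to 0.26 over the 6 hybridised pairs, beside 0.13 to 0.29 for all probes. For 050502 over New pair A, only 3 of 8 pathway probes and 42.7% of all probes had the same sign on both arrays. In that genotype pair, LMP7 was below 0 on the first array of each exchange (-0.33 and -0.47) and above 0 on the second (0.16 and 0.039). Its labelled mean of -0.15 (SD 0.095, limma adjusted p = 0.90) thus joined values that changed sign with the dye. The same held for LMP10 (-0.20 and -0.21 on first arrays, 0.023 and 0.14 on second) and SUG1 (-0.0047 and -0.0060, then 0.083 and 0.078).

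The loop allows 050502 over New to be set beside the sum of the other comparisons. Direct and summed values were 0.096 and -0.22 for MHC-I, 0.050 and -0.13 for TAP1, -0.15 and -0.27 for LMP2, and -0.20 and -0.21 for TAP2. For LMP7 they were -0.15 and -0.19, for LMP10 -0.063 and -0.056, for CALR -0.086 and -0.17, and for SUG1 0.038 and 0.11. Of the 8 probes, MHC-I, TAP1, TAP2, LMP2 and CALR had opposed signs in pairs A and B of 050502 over New. Those pairs correlated at r = -0.54 across all 185 probes, so opposed signs were not particular to the pathway. With pair A turned, 7 of 8 had means below 0 (median -0.16, all probes 0.020, of which 45.9% were below 0) against 5 of 8 as labelled, and the lowest limma adjusted p of the 8 was 0.23.

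**Figure D5:**
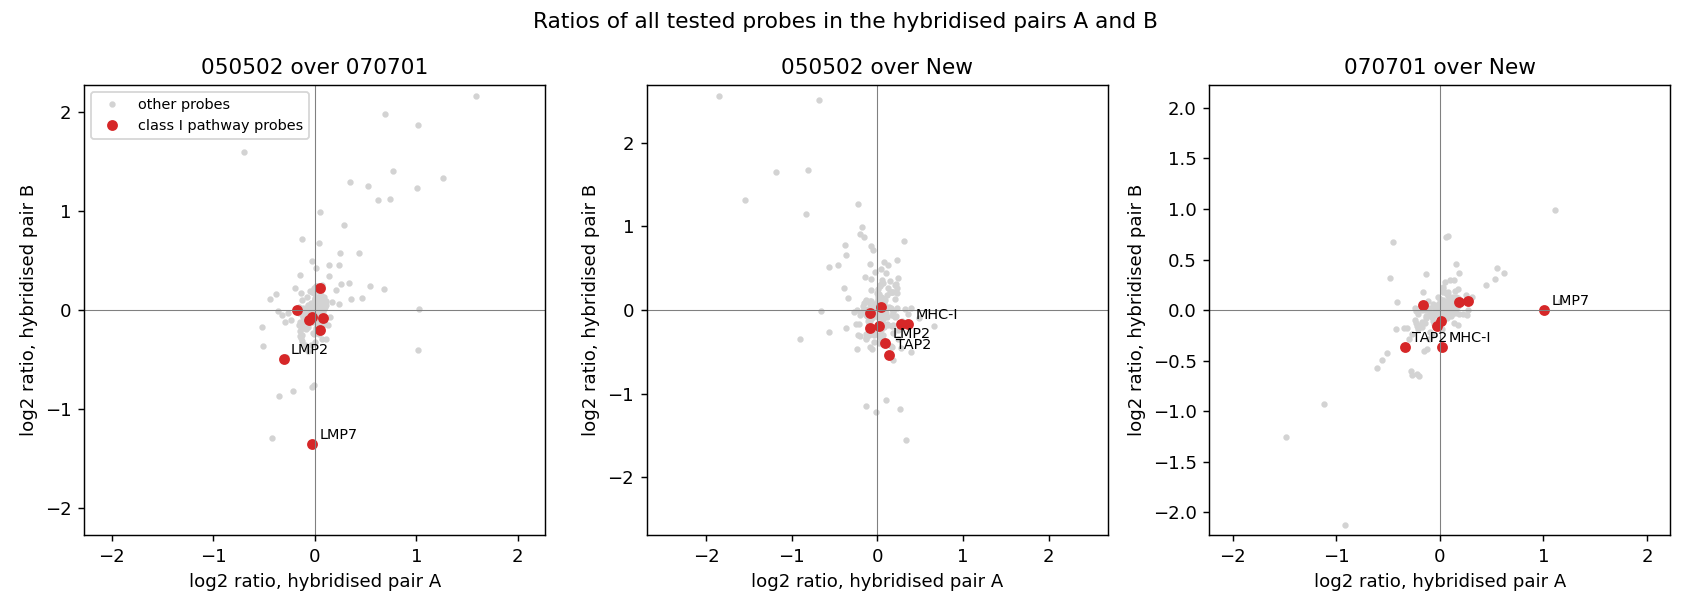
Log2 ratio of each of the 185 tested probes in hybridised pair A (x axis) and pair B (y axis) of each genotype pair, first-named over second genotype, with the 8 class I pathway probes in red. LMP7 lies far along 1 axis in both comparisons with 070701 (-1.35 in pair B, 1.004 in pair A), LMP2 lies at -0.31 and -0.50 in 050502 over 070701, and most other pathway probes lie near the origin.

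Among the other antigen presentation probes of the array, 2 of 9 passed in limma as higher in 050502 than in 070701, against 2 of all 185 probes (1.08%), and the same 2 passed as lower in 070701 than in New, again against 2 of 185 (1.08%). Means were above 0 for 6 of the 9 in the first comparison (median 0.35), where 51.9% of all probes were below 0. In the second they were below 0 for 8 of 9 (median -0.28), against 47% of all probes. For 050502 over New, 9 of 9 were below 0 as labelled (median -0.14), against 48.6%. The 2 that passed in the first and second comparisons were MHC class II probes, MHC-DQ at 1.30 and -1.37 and MHC-DY at 1.12 and -1.02 (limma adjusted p from 0.0059 to 0.0099). The class I pathway means ran from -0.69 to 0.14 for 050502 over 070701 and from -0.35 to 0.50 for 070701 over New. MHC-DQ and MHC-DY lay beyond these ranges. MHC-DM, at 0.44 and -0.59, also lay beyond them but did not pass (limma adjusted p = 0.44 and 0.20). MHC-DR, at 0.045 and -0.26, lay within them. These 2 comparisons share the 070701 boars. The difference between class II and class I probes was not itself tested.

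Interferon gamma raises several of these genes, and 5 of 20 fixed names for interferons and their signalling matched array probes. For 050502 over 070701, 5 of 5 had means below 0, as did 51.9% of all probes (median -0.12, 0 passing in limma, lowest adjusted p = 0.64). Jak1 was at -0.22, IRF1 at -0.12 and IFNg at -0.023. Probes named IFNrf8 and INFa were not matched to the fixed names. In pairs A and B of this comparison IFNrf8 was at -0.14 and 0.17, and INFa at 0.035 and 0.13. For 070701 over New, 0 of 5 passed in limma (median 0.013, lowest adjusted p = 0.71). For 050502 over New, 5 of 5 were above 0 as labelled, where 48.6% of all probes were below 0 (median 0.089, 0 passing, lowest limma adjusted p = 0.56). Jak1, at 0.22 in pair A and -0.074 in pair B, falls below 0 with pair A turned. Of these 5 probes 1 was brighter than both negative controls in most channels. The 14 fixed names for partners of the class I pathway, among them B2M and tapasin, matched no probe name. Matching was by name only, so a partner printed under another name would be missed. Which gene the probe named B2 stands for was not checked. The reference genes GAPDH and HPRT lay between -0.11 and 0.055 in the 3 genotype pairs, while ACTB was at 0.31, -0.46 and -1.52 with SDs from 0.85 to 1.03.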

How the data were processed

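Labelled cDNA was made from amplified RNA, per the labels' protocols, and amplification can change ratios of transcripts. The deposited intensity values are spot and background medians: scanning used 635 and 532 nm, per the file headers, and quantification GenePix Pro 6.0.1.25 with no normalization, and the percent of saturated pixels came from the same software. The authors' deposited log2 ratios matched the scanner software's own within 0.0005 and served as an alternative.

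Foreground medians were corrected with limma's normexp (offset 50) and normalized within arrays by global loess, with control and not-found spots at weight 0. Spots were averaged, ratios turned to the first-named genotype, and dye exchanges averaged. Tested probes were those with most spots over background plus 2 background SD, in either channel, on at least 6 arrays. The 6 ratios were fitted with lmFit and eBayes in limma 3.58.1 (R 4.3.3), with 3 residual degrees of freedom, and p-values were two-sided, adjusted by Benjamini-Hochberg over 185 probes (threshold 0.05). The fit treats the 6 ratios as independent although boars recur, so p-values measure only the spread between these hybridisations. Levels used Aquantile scaling between arrays. SDs are between hybridised pairs. The fit was tested on simulated data with independent pairs, which does not cover shared boars. The number of arrays limits the precision. Probe sequences are not used here.

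All 8 probes are described in each genotype pair, each with its 1 nearest probe, and other lists by counts, medians and at most 4 genes; some items these rules name are not reported here. Members and lists were chosen with earlier results of these data known.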

Additional observations from a re-analysis of the deposited data

How the results depend on the processing

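In each genotype pair 0 of the 8 probes passed in limma under any alternative, the lowest adjusted p being 0.067 (TAP2, 050502 over New without pair A, where the 1 pair left is assumed to vary like the other genotype pairs), then 0.073 (LMP2, 050502 over 070701, scan date as a random block, which counts dye-exchange arrays as replicates). With the replicate block, the letter A or B as a term, 0 of 8 passed too (lowest limma adjusted p = 0.19, 0.51 and 0.57). Deviations of pairs with the same letter correlated at 0.53, 0.62 and 0.43, but the labels tie letters to no boar. Of 472 single values 192 repeat the main estimate by construction, as when another comparison's pair is left out. Of the other 280, 239 kept their direction and 41 turned; the cause was not tested.

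For 050502 over 070701, the closed loop put MHC-I at 0.060. LMP10 was at 0.00030 without background correction, 0.014 with medians of spots, 0.023 on second arrays and 0.079 within the shared scan date, where SUG1 was at 0.047. Leaving out pairs gave -0.18 to 0.0019 for TAP1, -0.081 to 0.079 for LMP10 and -0.20 to 0.047 for SUG1.

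For 050502 over New, median centring gave -0.25 for MHC-I, -0.032 for TAP1 and -0.17 for SUG1, and the deposited values -0.35, -0.11 and -0.26. First arrays gave -0.0030 for TAP1 and -0.0054 for SUG1, second arrays 0.013 for TAP2, 0.10 for LMP7 and 0.081 for LMP10. The closed loop gave -0.0098 for MHC-I and -0.011 for TAP1. Turning pair A gave -0.26 for MHC-I, -0.22 for TAP1, 0.026 for LMP10 and -0.0015 for SUG1. Leaving out pairs gave -0.17 to 0.36 for MHC-I, -0.17 to 0.27 for TAP1, -0.54 to 0.14 for TAP2, -0.40 to 0.091 for LMP2 and -0.19 to 0.015 for CALR.

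For 070701 over New, TAP1 was at 0.065 on second arrays and 0.015 in the closed loop, LMP10 at 0.023 with median centring, and SUG1 at -0.13 with the deposited values. Within the shared scan date LMP7 was at -0.0033 and LMP10 at 0.055. Leaving out pairs gave -0.37 to 0.016 for MHC-I, -0.10 to 0.011 for TAP1, -0.0033 to 1.004 for LMP7 and -0.17 to 0.055 for LMP10. Signals of TAP2 and CALR near the negative controls limit what their ratios can show.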
